A study of Caenorhabditis elegans with 2 samples.

Results

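The genes described here encode the subunits of AMP-activated protein kinase (AMPK) in Caenorhabditis elegans. They are the catalytic alpha subunits aak-1 and aak-2, the scaffolding beta subunits aakb-1 and aakb-2, and the regulatory gamma subunits aakg-1, aakg-2, aakg-4 and aakg-5. These 8 genes, of 19973 protein-coding genes on the 6 chromosomes, were chosen from the measured regions themselves, because the second strongest region of the series lies nearest aakg-1 and another lies in an intron of aak-2. Signal and rank at these genes are therefore given as a description, with no test. For each gene, every region was taken whose summit, the point that the deposited list marks within a region, lay in the gene body or within 10 kb of it.

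DNA bound by a transcription factor carrying a GFP tag was measured by ChIP-seq, the sequencing of chromatin fragments pulled down with the factor, in whole L1 larvae (the first larval stage) of both sexes pooled and of unknown age. The single group held 2 biological replicates of strain OP355, which carries the mutation unc-119(tm4063) on chromosome III and the transgene wgIs355, and both libraries shared all of these. The labels name both mdl-1 and ZK337.2 as the tagged gene, so the factor is called the tagged factor here. The deposited data were lists of 30000 regions for each replicate and for both pooled, and a list of 259 regions thresholded by the irreproducible discovery rate, called thresholded here. By their names the longer lists hold background as well as peaks, so a region in them is not by itself a peak. The thresholded regions had the highest pooled signals, 503.3 to 49.8, and the first region outside had 49.7. Read totals were not among the values, so library depth could not be given, and whole larvae do not show in which cells a region was occupied.

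AMPK is a heterotrimer that senses falling cellular energy. Its gamma subunit binds AMP and ADP, its beta subunit holds the complex together, and its alpha subunit phosphorylates enzymes and regulators that turn cells from energy use to energy supply. In worms aak-2 is known for its part in longevity under energy stress, and AMPK is known for keeping starved L1 larvae in a quiescent state. MDL-1, the product of one of the genes named in the labels, is a relative of the MAD repressors of mammals and binds E-box sequences together with a MAX-like partner.

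The windows of the 8 genes held 3 thresholded regions. Of these, 2 were at aakg-1 and 1 was at aak-2, and each contained the palindromic E-box CACGTG. The sequences of these sites are shown because they are the places where the tagged factor gave its highest signal at AMPK genes. Each is read from the plus strand of the RefSeq copy of the ce11 assembly (WBcel235), with CACGTG in capitals. The first is the whole region, chrIII:12583608-12583760. The others are the 75 bp on either side of the summit, chrIII:12568415-12568565 and chrX:16796933-16797083.

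aakg-1 upstream: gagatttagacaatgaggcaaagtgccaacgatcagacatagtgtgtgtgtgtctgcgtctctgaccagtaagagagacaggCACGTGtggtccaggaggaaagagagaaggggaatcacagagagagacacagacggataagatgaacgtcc

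aakg-1 intron: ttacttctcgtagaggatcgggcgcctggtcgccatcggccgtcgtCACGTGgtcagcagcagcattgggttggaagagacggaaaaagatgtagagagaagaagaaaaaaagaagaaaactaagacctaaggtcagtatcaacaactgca

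aak-2 intron: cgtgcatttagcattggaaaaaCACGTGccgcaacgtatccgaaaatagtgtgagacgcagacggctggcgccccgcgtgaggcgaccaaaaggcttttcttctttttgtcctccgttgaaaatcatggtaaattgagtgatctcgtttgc

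The strongest of them stood upstream of aakg-1 (WBGene00013732), a gamma subunit gene of 36738 bp on the minus strand of chromosome III, from 12538664 to 12575401. Pooled, its signal was 340.2, which ranked 2. Replicate 1 gave it 150.4 at rank 5, and replicate 2 gave it 192.7 at rank 2. Both libraries thus placed it among their 5 strongest regions. The summit was 8284 bp upstream of the outermost 5' end of aakg-1, in a gap of 20592 bp between aakg-1 and gldi-8. The nearest other gene of any annotated kind was gldi-8, 12309 bp away, which is also on the minus strand, so that its 3' end faces the region. Only 3 protein-coding genes had a stronger region in their own windows than aakg-1 had. The E-box began 5 bp from the summit, at 12583690 to 12583695. A GA repeat, GAGAGAG, lay 44 bp from the summit in the same region and did not overlap the E-box. The region was 153 bp wide, narrower than the usual 340 bp of the pooled list.

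A second thresholded region lay inside aakg-1, at chrIII:12568320-12568659, with its summit 6911 bp downstream of the 5' end. It fell in intron 5 of 2 of the 7 annotated transcripts, an intron of 10762 bp from 12561880 to 12572641, and the nearest annotated transcript start was 5412 bp away. Its pooled signal was 106.6, at rank 52. Replicate 1 gave 59.3 at rank 48, and replicate 2 gave 42.3 at rank 102. Here the ratio of the deposited signal of replicate 1 to that of replicate 2 was 1.403, whereas at the upstream region it was 0.781. The replicate lists are on their own scales, so these ratios do not show which library was higher. The E-box lay 24 bp from the summit, and the related E-box CATGTG lay 111 bp from it. At least 2 thresholded summits in the gene body or within 10 kb were found for 85 of 19973 protein-coding genes (0.426%). The gene aakg-1 was chosen through its upstream region, and its window was 56738 bp long, so nothing is read from this share.

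Weaker regions were spread along the rest of aakg-1. The pooled list held 16 regions in its window, 11 of them within the gene body. After the thresholded pair came 40.3 (rank 508), 18082 bp downstream of the 5' end, and 38.7 (rank 600), 17070 bp downstream, both in introns. Replicate 2 ranked the second of these at 369 with a signal of 25.5, while replicate 1 ranked it at 18505 with 12.1, so that region was far higher in the order of replicate 2. The remaining 12 pooled regions had signals of 25.21 or less. Its window was the longest of the 8, and per 10 kb it held 2.82 regions, against a median of 2.939 over all protein-coding genes.

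**Figure D1:**
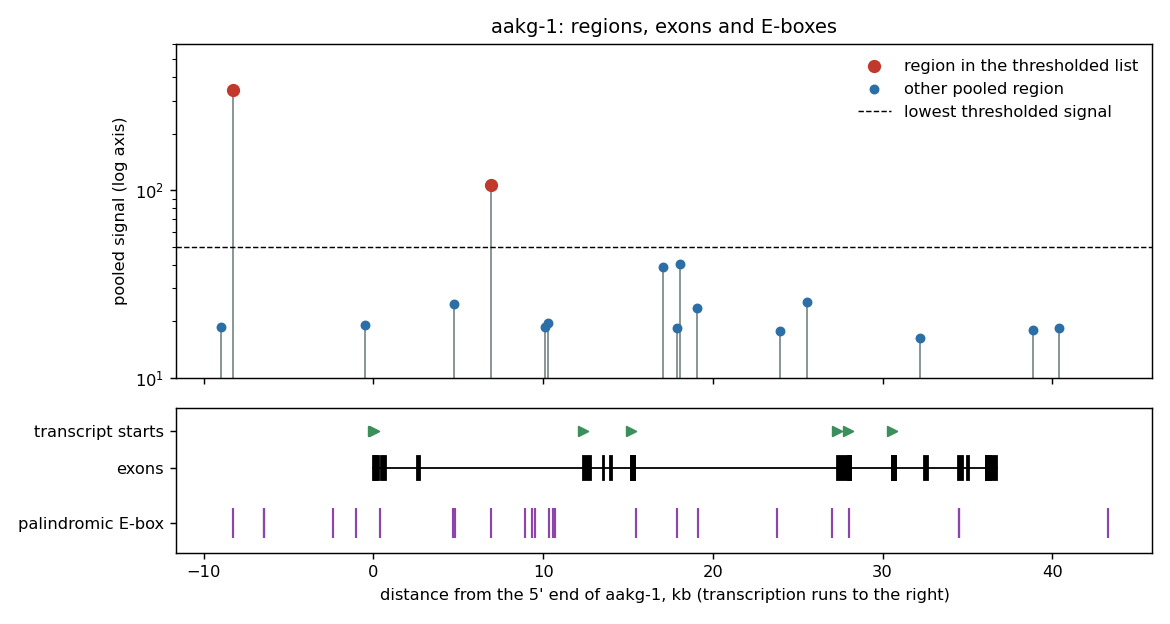
Pooled regions across aakg-1 and 10 kb on either side, as signal on a log axis against distance from the 5' end in kb, above the annotated exons, transcript starts and palindromic E-boxes. The thresholded regions (red) stand at 340.2 upstream of the gene and at 106.6 in the long intron 5, while the other regions (blue) lie at 40.3 or below although E-boxes occur throughout the window.

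At aak-2 (WBGene00020142, chromosome X, 16796087 to 16803398, plus strand), a catalytic subunit gene, the thresholded region lay at chrX:16796838-16797177. Its summit was 921 bp downstream of the outermost 5' end, in intron 1, which is 3475 bp long. Its pooled signal was 71.8, at rank 113. Replicate 1 gave 27.9 at rank 277 and replicate 2 gave 46.5 at rank 85. It was therefore among the 259 strongest regions of replicate 2 but not of replicate 1. The nearest other annotated gene was the non-coding RNA gene T01C8.9, 107 bp from the summit on the opposite strand, and the nearest other protein-coding gene was got-1.2, an aspartate aminotransferase gene, 3882 bp away. The E-box was 48 to 53 bp from the summit, so it was not wholly within 50 bp. GAGAGAG lay 90 bp and CATGTG 146 bp from the summit, and none of these sequences overlapped. The next region in the aak-2 window had a pooled signal of 31.5 (rank 1813), 2300 bp upstream of the 5' end.

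All 3 thresholded regions had a matching region, with summits at most 200 bp apart, in both replicate lists. Over the 255 thresholded regions matched in both lists, the median ratio of replicate 1 to replicate 2 was 0.922, and the middle 80% ran from 0.533 to 1.613. The 3 ratios at AMPK genes, 0.781, 1.403 and 0.599, lay within that range. The summit of the upstream aakg-1 region differed from the pooled one by 3 bp in replicate 1 and 11 bp in replicate 2. That of the intronic aakg-1 region differed by 39 and 54 bp, and that of aak-2 by 15 and 0 bp. Both aakg-1 regions were among the 259 strongest of each replicate, as were 46.7% of all thresholded regions.

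**Figure D2:**
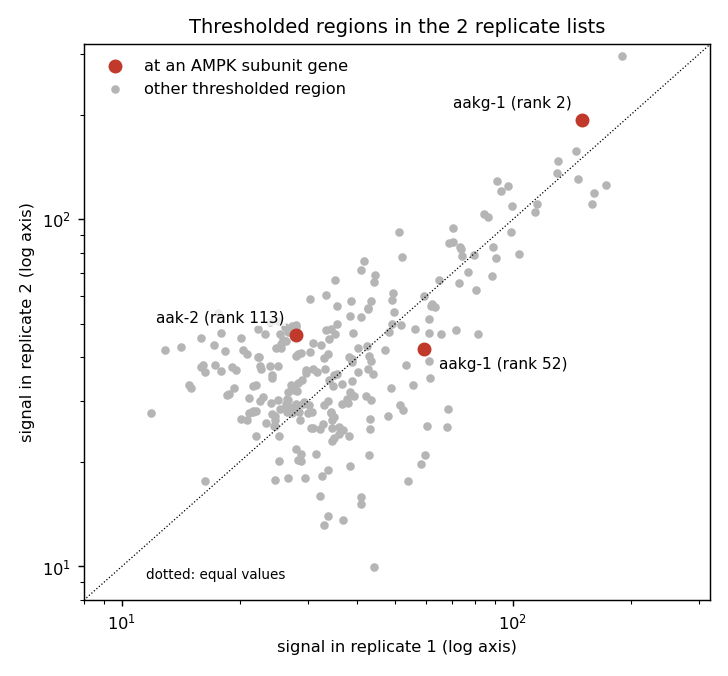
Signal in replicate 1 against signal in replicate 2, on log axes, for the 255 thresholded regions matched in both lists, with the regions at AMPK genes in red and the dotted line at equal values. The upstream aakg-1 region sits near the upper right corner at 150.4 and 192.7, while those of aak-2 and of the aakg-1 intron fall on opposite sides of the line within the main cloud.

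Regions of other genes that were most like these, by Euclidean distance of log2 signal over the pooled and replicate lists, were named as a description. These 3 lists share the same libraries. For aakg-1 the closest was a region 1999 bp from hif-1, which encodes a factor of the hypoxia response, with 299.5 pooled, 144.6 in replicate 1 and 156.9 in replicate 2 (distance 0.35). The next was the region nearest T04C4.3, with 274.3, 130.5 and 147.0 in the same order (distance 0.54). This region is also the one given below for the pathway gene fnip-2. For aak-2 the closest was a region in unc-108, a Rab2 gene, with 72.0, 27.9 and 48.8 (distance 0.071). A region 2822 bp from chd-7, a chromodomain helicase gene, followed with 72.6, 27.3 and 49.2 (distance 0.088). No other protein-coding gene had the upstream aakg-1 region as the strongest of its window, and 3 others shared that of aak-2.

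The other catalytic gene, aak-1 (chromosome III, 8756990 to 8761090), had no pooled region within its body. The strongest of 6 in its window had a signal of 22.7 (rank 9888) and lay 5408 bp upstream of aak-1, in the 5' UTR of mig-22, a chondroitin synthesis gene. It had a counterpart in replicate 2 (15.9) and none in replicate 1.

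Of the beta subunit genes, aakb-1 (chromosome X, 13755769 to 13759391) had the strongest region below the threshold among the 8 genes. It had a pooled signal of 44.9 (rank 332), with 19.7 in replicate 1 (rank 2106) and 24.95 in replicate 2 (rank 399). It lay 13008 bp downstream of the 5' end and past the far end of aakb-1, within nkb-3, which encodes a sodium-potassium ATPase beta subunit, and the non-coding gene F55F3.9. Within the body of aakb-1 itself the pooled list had 1 region, at 18.0. The other beta gene, aakb-2 (chromosome III, 11237143 to 11239204), had 4 regions, the fewest of the 8. The strongest had 28.7 pooled, 15.4 in replicate 1 and 13.0 in replicate 2, and was 9218 bp upstream of aakb-2 but 800 bp from the T-box factor gene tbx-37.

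The remaining gamma subunit genes stood well below aakg-1. The strongest region of aakg-4 (chromosome X, 2314894 to 2319338) had a pooled signal of 28.6 and lay 6359 bp upstream, with the non-coding gene linc-154 nearest at 1047 bp. It had 14.2 in replicate 1 and 8.66 in replicate 2. That of aakg-5 (chromosome II, 9971035 to 9975125) had 28.4 and lay 6891 bp downstream of the 5' end, past the gene and 143 bp from the non-coding gene R53.9. Replicate 1 had a counterpart of 16.5 and replicate 2 had none. At aakg-2 (chromosome X, 16866046 to 16869031) the strongest of 7 regions had 20.3, the lowest maximum of the 8 genes, 1833 bp from a pseudogene. It had a counterpart of 18.8 in replicate 1 and none in replicate 2, where the strongest region of the window, at 13.7, lay at another place. The fifth gamma gene, aakg-3, was not among the 8 genes, and its window held no thresholded region and a strongest signal of 39.2 (rank 569), 4758 bp upstream.

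**Figure D3:**
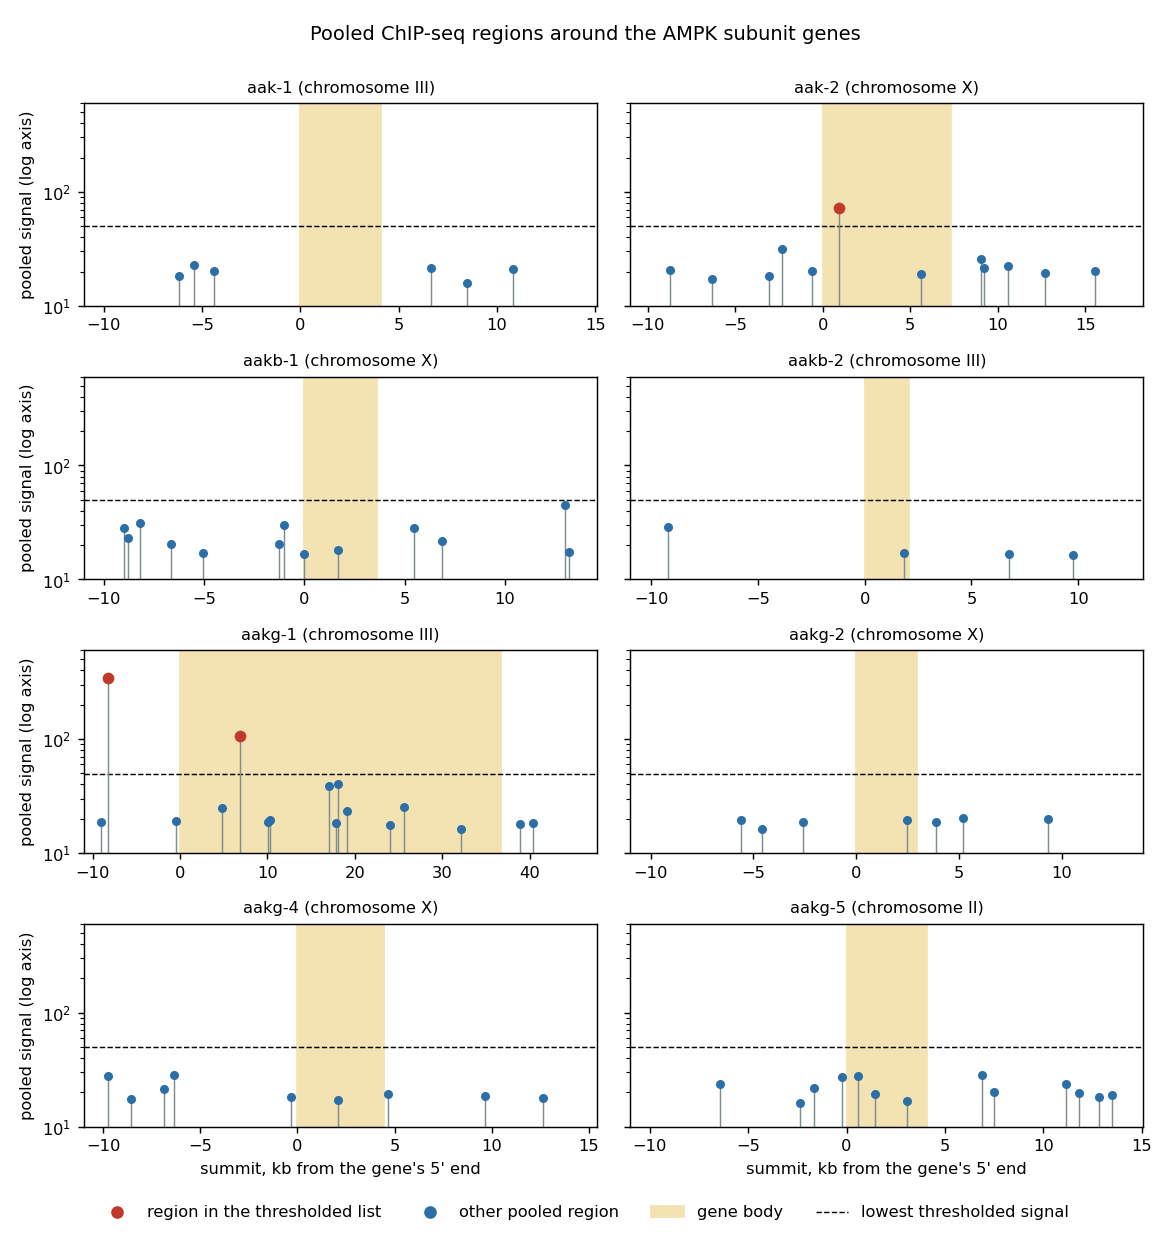
Every pooled region with its summit in the body of an AMPK subunit gene (shaded) or within 10 kb of it, as signal on a log axis against distance from the gene's 5' end in kb. The 3 thresholded regions (red) are those of aak-2 and aakg-1, and at the other 6 genes all regions (blue) lie under the dashed line at 49.8, the lowest thresholded signal.

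In order of their strongest pooled signal the genes ran aakg-1 (340.2), aak-2 (71.8), aakb-1 (44.9), aakb-2 (28.7), aakg-4 (28.6), aakg-5 (28.4), aak-1 (22.7) and aakg-2 (20.3). The order of the first 3 was the same in each replicate list and with windows of 5 and 20 kb, and that of the other 5 was not. In replicate 1 those ran aakg-2 (18.76), aak-1 (18.74), aakg-5 (18.73), aakg-4 (17.2) and aakb-2 (15.4). In replicate 2 they ran aakg-5 (19.1), aak-1 (15.9), aakg-4 (14.2), aakg-2 (13.7) and aakb-2 (13.0), so aakb-2, next after the first 3 when pooled, was the lowest in both. These orders do not always follow the same region. Of the 6 genes without a thresholded region, only 2, aakb-1 and aakb-2, had their strongest region at the same place in all 3 lists. With 20 kb, aakg-5 reached 33.9 and aak-1 reached 32.97, above aakb-2 and aakg-4. Over the 8 genes the median was 28.6 pooled, 18.8 for replicate 1 and 17.5 for replicate 2. Over all protein-coding genes it was 28.7, 18.3 and 16.3 in the same lists, also with windows of 10 kb. These medians were not tested against each other. Of the 19846 protein-coding genes with a pooled region in the window, a stronger one than the gene's own was present at 2.13% for aak-2, 6.57% for aakb-1 and 96.6% for aakg-2.

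**Figure D4:**
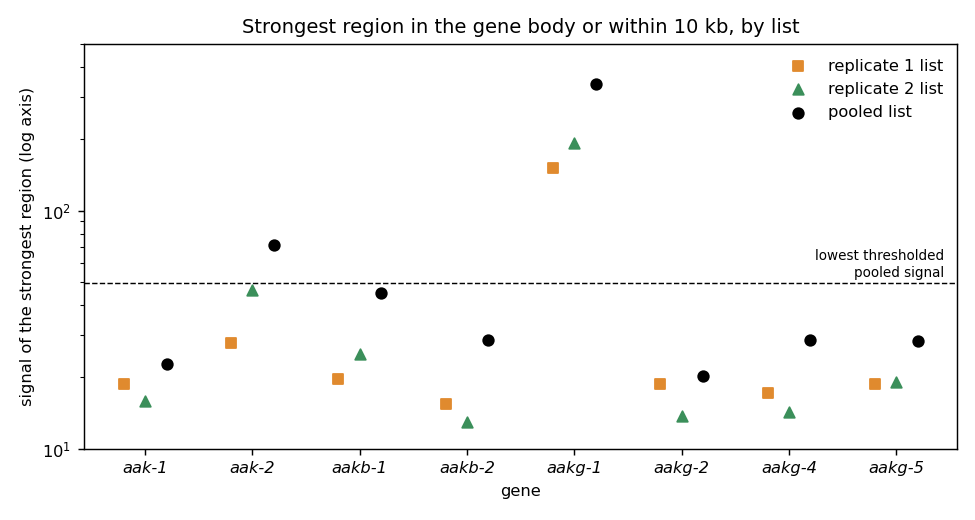
Signal of the strongest region in the body of each AMPK subunit gene or within 10 kb, on a log axis, in the lists of replicate 1, replicate 2 and both pooled; the replicate lists and the pooled list are on their own scales. aakg-1 is highest and aak-2 second in all 3 lists, and the dashed line marks the lowest thresholded pooled signal, 49.8.

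A thresholded summit lay in the window of 2 of the 8 genes, aakg-1 and aak-2, and of 986 of the 19973 protein-coding genes (4.94%). The same 2 genes had one within the gene body, as did 0.371% of protein-coding genes. Among the 9788 genes with body lengths in the range of the 8, 6.02% had a thresholded summit in the window. These regions led to the choice of the genes, so nothing is read from the counts. In the whole windows the pooled list held 80 regions, of which 26 had a match in both replicate lists (32.5%, against 24.9% of all pooled regions). The number of regions per gene ran from 4 at aakb-2 to 16 at aakg-1, with a median of 10.5, against 7 over all protein-coding genes. Longer genes have longer windows. The median body length over all protein-coding genes was 2027 bp, and 7 of the 8 genes were between 2062 and 7312 bp long. Per 10 kb of window, the median was 3.364 regions over the 8 genes and 2.939 over all protein-coding genes. This difference was not tested.

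The promoter window was taken as 1000 bp before and 500 bp after the outermost 5' end. It held a thresholded summit at 0 of the 8 genes, and at 0.721% of protein-coding genes. Weaker pooled regions stood in 5 of the 8 promoter windows, against 42.7% of protein-coding genes. The highest was that of aakg-5, at 27.3 and 219 bp upstream of the 5' end, but it had no counterpart in either replicate list. At aak-2 the signal was 20.03, at aakg-1 19.2, at aakg-4 18.4 and at aakb-1 16.7. None of the 5 had a counterpart in both replicate lists, and the promoter windows of aak-1, aakb-2 and aakg-2 held no pooled region. With the starts of all annotated transcripts used instead, the count was also 0 of the 8 genes, beside 0.806% of protein-coding genes. At shares this low, nothing is read from a count of 0 among 8 genes.

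Each summit was searched 50 bp to either side, reading both strands, for the palindromic E-box, the related E-box and the GA repeat spelled out above. The palindrome stood wholly within that distance at both aakg-1 regions and, at 100 bp, at all 3 thresholded AMPK regions. Over all 259 thresholded regions 88 had the palindrome within 100 bp, against 1238 of the 29741 pooled regions that did not pass (4.16%). Within 50 bp it was found at 65 of the 259, against 683 of the 29741 (2.3%). Also within 50 bp, the related E-box was found at 25 of the 259, against 1026 of the 29741 (3.45%). The GA repeat was found within 50 bp at 45 of the 259, against 559 of the 29741 (1.88%). Among the 77 AMPK regions that did not pass, 4 had the palindrome within 50 bp of the summit, with signals of 23.5 and 18.5 (both in aakg-1), 18.99 at aakg-5 and 16.01 at aak-1. The related E-box was found at 6 of the 77 and the GA repeat at 3. A match says only that these letters are present in the window.

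Most E-boxes around AMPK genes had no strong region over them. The windows of the 8 genes held 61 CACGTG, or 2.707 per 10 kb, against 1.768 per 10 kb over the 6 chromosomes. Of these, 12 (19.7%) lay within 100 bp of a pooled summit and 3 (4.92%) within 100 bp of a thresholded one, against 7.83% and 0.547% of the 17729 CACGTG on the chromosomes. The genes were chosen through strong regions at aakg-1 and aak-2, so nothing is read from these shares. The aakg-1 window alone held 24, of which 7 were near a pooled summit and 2 near a thresholded one. The 8 CACGTG at aak-2 included 1 under its thresholded region. At aakg-5, 2 of the 3 CACGTG were near a pooled summit, as was 1 of the 5 at aak-1, and none of these was near a thresholded one. The 6 at aakb-2, the 6 at aakg-4, the 5 at aakb-1 and the 4 at aakg-2 were all more than 100 bp from any pooled summit.

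Other genes of the AMPK pathway were examined as 5 lists in the same windows. These lists were chosen with earlier results of these data known, so nothing is read from their counts or signals. A thresholded summit was found for 5 of 43 genes, beside 4.94% of protein-coding genes, a share not matched for gene length. There was none at the 6 upstream kinases and adaptors, which include par-4, the LKB1 kinase gene, nor at the 5 AMPK-related kinases or the 6 genes of glycogen metabolism. Of the 12 downstream effectors, 3 had one. Those were atgl-1, the adipose triglyceride lipase gene (84.8, rank 78), nhr-49, a nuclear receptor of fat metabolism (52.2, rank 233), and hlh-30, the TFEB homologue of autophagy, with 70.6 (rank 117) and 54.0 (rank 216) in an intron. The atgl-1 region was 1754 bp upstream of that gene, in the 3' UTR of C05D11.8. That of nhr-49 lay 317 bp upstream of nhr-49 and 270 bp from K10C3.5. Of the 43 genes, nhr-49 was the only 1 with a thresholded summit in the promoter window, beside 0.721% of protein-coding genes.

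Of the 14 genes of TOR complexes and nutrient sensing, 2 had a thresholded summit. They were fnip-2 and flcn-1, whose mammalian counterparts, FNIP and folliculin, form a complex that binds AMPK. The fnip-2 region, at chrIV:2219603-2219761, had a pooled signal of 274.3 (rank 7), with 130.5 in replicate 1 and 147.0 in replicate 2, and CACGTG within 50 bp of its summit. It lay 3171 bp upstream of fnip-2 and 2801 bp from its other neighbour, T04C4.3. It is the region named above, by T04C4.3, among those most like that of aakg-1, and not a separate observation. The flcn-1 region had 101.7 (rank 57), with 61.2 in replicate 1 and 39.0 in replicate 2. It was 3644 bp past the end of flcn-1, in the 5' UTR of the homeobox gene ceh-38, without CACGTG within 100 bp. In replicates 1 and 2 the atgl-1 region ranked 133 and 72, that of nhr-49 1867 and 319, and the hlh-30 regions 500 and 100, and 2776 and 208. With the 259 strongest regions of replicate 2 alone nhr-49 was not among the genes found, and with those of replicate 1 alone hlh-30 was not. In replicate 1 nhr-49 was found only through another region, 7560 bp from the gene, with a signal of 31.8 (rank 164), which matched no thresholded region. The fnip-2 region ranked 8 and 4. The median of the strongest signal over the 43 genes was 33.1, against 28.7 over all protein-coding genes.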

How the data were processed

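The files are lists of regions on genome build ce11, from ChIP-seq of 2 libraries of 1 group. Per the deposited readme texts, the authors made the longer lists, named as peaks and background, from alignments and 1 further file, and made the thresholded list from the pooled list and those of both replicates by irreproducible discovery rate. The signal of a region is the authors' deposited value, which is never negative. For its scaling, the aligner, the peak caller and the cutoff, nothing is given in the sources used here, and controls were not analysed here. Each longer list holds 30000 regions, so replicate and pooled signals are on their own scales, and unequal depth would move weak regions in or out of a list.

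Regions were placed by summit against Ensembl release 115 genes of WBcel235, the assembly of ce11; all 8 genes matched by symbol. Replicate regions were matched at summits up to 200 bp apart, and motifs were counted wholly within 50 bp of a summit. No test was run, since there is 1 group. Protein comparison of the subunits was not run. Window and matching functions were checked on simulated regions, with 0 of 1000 windows and 0 of 1500 matches wrong. Python 3.11.15, NumPy 2.4.6 and pandas 2.3.3 were used. The genes and lists were chosen with earlier results of these data known. Genes named are the 8 genes, aakg-3, the nearest genes at their thresholded or strongest regions, pathway genes with a thresholded summit, and the 2 regions most like those of aakg-1 and aak-2. Alternatives changed the window, threshold, replicates, gene models, build, matching and motif distance. ce10 regions were matched by chromosome and signal within 0.1%, without converting coordinates.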

Additional observations from a re-analysis of the deposited data

How the results depend on the processing

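The 2 genes with a thresholded summit were also 2 with windows of 0, 2, 5 and 20 kb (0.371%, 1.78%, 2.98% and 9.02% of protein-coding genes), in the stronger part of the thresholded list (2.36%), by nearest 5' end (1.15%) and with RefSeq gene positions (4.93%), and 3 with the 500 strongest pooled regions (9.77%). Leaving out a replicate gave 1 to 2 (5.26% without replicate 2, 4.82% without replicate 1); without replicate 2, aak-2 was lost, since its region ranked 277 in replicate 1. The median strongest signal, 28.6, was 24.97 within 5 kb, 33.4 within 20 kb, and 17.5 to 18.8 with a replicate left out, where the lists have their own scale. At 25 bp from the summit CACGTG was in 1 of the 3 thresholded AMPK regions (14.7% of all thresholded regions) and GAGAGAG in 0 (9.65%), and at 100 bp GAGAGAG was in 2 (30.1%) and CACGTG in 3 (88 of all 259); shorter or longer windows hold fewer or more sequences by construction. The 3 regions had ce10 counterparts of the same ranks, all thresholded there, in a list of 236 regions with a lowest signal of 51.9. For aak-2, 2 ce10 regions lay within the 0.1% allowed, so its match by signal was not unique. Pathway genes with a thresholded summit were 5 of 43 with 5 kb (2.98% of protein-coding genes) and with 20 kb (9.02%). They were 4 without replicate 1 (nhr-49 lost, 4.82%) or without replicate 2 (hlh-30 lost, nhr-49 kept by another region, 5.26%). With summits at most 50 bp apart, 2 of the 3 regions matched in both replicates. No paired analysis was possible because all libraries belong to 1 group. With library depth unknown, no error can be given for a single signal.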

Other observations

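The 10 kb limit of the windows was examined once. Around aakg-1 the farthest pooled region inside it, 8997 bp from the gene, had a signal of 18.6, and the nearest outside, at 12449 bp, had 18.8. For aakg-5 the nearest region outside, at 10083 bp, had 33.9, above the strongest inside, 28.4, and for aak-1 it was 22.85 at 10361 bp, beside 22.7 inside. The next thresholded region beyond the limit was 37216 bp from aakg-1, with Y111B2A.12 as its nearest protein-coding gene and a signal of 188.0 (rank 18). For aak-1 the nearest thresholded region was 34839 bp away, with zfp-1 as its nearest protein-coding gene (69.4), and for aakg-5 it was 33209 bp away, near C05C10.7 (62.1). At aakb-2 and aakg-4 the nearest were 247547 bp and 243341 bp away. Of the 10 strongest pooled regions of the series, 7 were narrower than the usual 340 bp, among them the one upstream of aakg-1, and of all 259 thresholded regions 10 were.

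The window of aakb-2 also reached rsks-1, the S6 kinase gene of the TOR pathway, where the pooled list held a region of 16.4 in a coding exon (rank 28158) and one of 16.8 at 1210 bp from the gene (rank 26446).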
